A study of Homo sapiens with 9 samples.

Results

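The genes described here are 30 members of the antioxidant programme of the transcription factor NRF2, together with enzymes of the pentose phosphate pathway. They were the rows of the deposited gene table whose Ensembl identifiers carry 30 given symbols, and all 30 were found among 61093 listed genes. Of these, 27 had a normalized count of at least 10 in at least 3 libraries and entered the tests, as did 17492 genes of the whole table. GPX2, AKR1B10 and AKR1C2 did not reach that level.

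The series holds 9 RNA-seq libraries labelled as HepG2, a human hepatocellular carcinoma line, and as liver: 3 with the treatment SKF-96365, 3 with 2-APB and 3 controls whose treatment label is empty (NULL). The series text names SKF-96365 as an inhibitor and 2-APB as an agonist of the cation channel TRPV2. Titles of the 2-APB libraries spell the compound ABP and their value columns carry the name TRPV2, so the group was taken from the treatment label. No dose, exposure time, vehicle or culture is labelled. If the 3 libraries of a group are not separate cultures, the p-values measure technical spread only. Recovered depth was 14786059 to 19026545 reads per library. Of 11 hepatocyte markers, 9 had a mean under 10 normalized counts, and albumin (ALB) lay between 0 and 11.8, so the libraries lack the defining hepatocyte transcripts of the labelled line. Of 6 mesenchymal markers the filament gene VIM was highest, between 25957 and 44039, while COL1A1 lay between 79.5 and 282 and COL1A2 between 5.24 and 25.6. The epithelial keratin genes were also high, with KRT8 at 67866 to 92630, KRT18 at 32910 to 49656 and KRT19 at 6620 to 10059. Both blood and both endothelial markers had means under 10. In such bulk libraries, fewer cells of a type and less RNA per cell cannot be told apart.

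NRF2, encoded by NFE2L2, is held in the cytoplasm and sent to the proteasome by KEAP1, whose reactive cysteines sense electrophiles and oxidants. When KEAP1 is modified, NRF2 enters the nucleus, pairs with a small Maf protein such as MAFG and binds antioxidant response elements. Its targets rebuild glutathione and thioredoxin, reduce quinones and carbonyls, degrade haem, store iron and supply NADPH, in part through the pentose phosphate pathway. In liver this programme is known for the detoxification of drugs and reactive metabolites.

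The letters that NRF2 and its Maf partner recognise could be read in RefSeq promoter windows (GRCh38.p14, 250 bases before to 50 after each start site). The windows were searched on both strands for TGACNNNGC. Windows were at hand for 25 of the 30 genes, and 8 of these 25 genes (32%) held the motif, against 16.1% of all 27305 genes with a window. They were TXNRD1, GCLM, KEAP1, ME1, PGD, CBR1, GPX2 and EPHX1. PRDX1, GSR, HMOX1, FTH1 and AKR1B10 had no window. Sequence outside the windows was not searched, so a gene without a match may hold the motif elsewhere. The following 5 stretches are from genes whose levels are described below. Capitals mark the motif, or its reverse complement GCNNNGTCA, in the direction of transcription.
GCLM: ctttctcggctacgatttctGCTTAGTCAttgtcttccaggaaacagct
TXNRD1: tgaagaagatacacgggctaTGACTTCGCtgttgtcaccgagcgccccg
KEAP1: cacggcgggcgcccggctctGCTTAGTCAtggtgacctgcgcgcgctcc
ME1: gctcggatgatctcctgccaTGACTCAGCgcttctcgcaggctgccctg
CBR1: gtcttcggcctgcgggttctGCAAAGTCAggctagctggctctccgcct
They lie at chr1:93909436-93909484 for GCLM, chr12:104215660-104215708 for TXNRD1, chr19:10502774-10502822 for KEAP1, chr6:83431160-83431208 for ME1 and chr21:36069845-36069893 for CBR1. The stretches of TXNRD1 and CBR1 are on the plus strand and the other 3 on the minus strand. In ME1 the motif holds TGACTCA, the letters of the AP-1 site, and this was the only 1 of 12 matches in the 8 genes to overlap TGACTCA or TGAGTCA. A match describes letters and no binding was measured.

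Libraries did not sort by treatment over the 17492 tested genes. Control 3 was closest to SKF-96365 2 (Pearson r = 0.9878 on log2 values) and SKF-96365 3 (0.9861), and further from control 1 (0.9606) and control 2 (0.9573). SKF-96365 1 was closest to 2-APB 3 (0.9875) and stood at 0.9716 and 0.9712 to the other SKF-96365 libraries. It stood at 0.9838 to control 1. 2-APB 1 and 2 were the closest pair of all (0.9898). 2-APB 3 stood at 0.9798 and 0.9808 to them, below its 0.9875 to SKF-96365 1 and 0.9856 to control 1. The labels were kept as given, and whether the labels of control 3 and SKF-96365 1 were exchanged was not tested. An exchange would change the meaning of every value that rests on either library. This holds for SKF-96365 against control, 2-APB against control and 2-APB against SKF-96365. It also holds for the levels at rest, which average control 3 with the other controls. A second fit therefore left out both libraries, and its values stand beside the results of many genes, with those of other members in a paragraph of their own. The 2 libraries were picked for their distance from their own group, which makes p-values of that fit too small. 2-APB 3 was kept in it, so its 2-APB values still rest on a library nearer to SKF-96365 1 and control 1 than to its own group.

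At rest the programme was uneven, with very high ferritin and thioredoxin transcripts beside very low levels of SRXN1, AKR1B10 and the AKR1C genes. Levels between genes were compared as normalized counts per kilobase of the principal transcript in the 3 control libraries, ranked against 13060 tested protein-coding genes. FTL, the light chain of the iron store ferritin, stood at 39269 ± 6409.9 per kilobase (SD, n = 3) and ranked 12 of 13060. TXNRD1, the cytosolic thioredoxin reductase, stood at 12589 ± 943 and ranked 48. PRDX1, a peroxiredoxin that removes hydrogen peroxide, ranked 86, and FTH1, the ferritin heavy chain, ranked 88. These 4 genes lay at or above percentile 99. In all, 14 of the 30 lay at or above percentile 90, among them TKT (rank 136), TXN (159), NQO1 (313), TALDO1 (404), PGD (451) and HMOX1 (488). The HMOX1 level rested on control 3, at 1059, 1206 and 3001 per kilobase in control 1 to 3, and control 1 and 2 lay between percentile 90 (811) and percentile 95 (1379). NFE2L2 itself stood at 875 ± 38.1 per kilobase (rank 1181) and KEAP1 at 192 ± 28.6 (rank 5382).

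The 6 genes under percentile 50 were SRXN1, GPX2, AKR1B10 and AKR1C1 to AKR1C3, and all 6 lay under percentile 15. The AKR1C1 level rested on a transcript length of 6705 bases, against 1807 for AKR1C3, and a shorter length would raise it. In control AKR1C1 averaged 87.1 normalized counts and AKR1C3 19.3. SRXN1, which reactivates over-oxidised peroxiredoxins, stood at 9.41 ± 5.54 per kilobase, while its substrate gene PRDX1 stood at 7655 ± 1743. With the union of exons as length, 6 genes instead of 4 reached percentile 99 and 7 instead of 6 lay under percentile 50, the added gene there being GCLC. Together the 30 genes took 0.903% to 0.978% of the signal of a library, of which TXNRD1 and FTL held 0.466% to 0.557% of the library's signal. No untreated liver or second line was analysed here, so the levels have no outside scale.

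**Figure D1:**
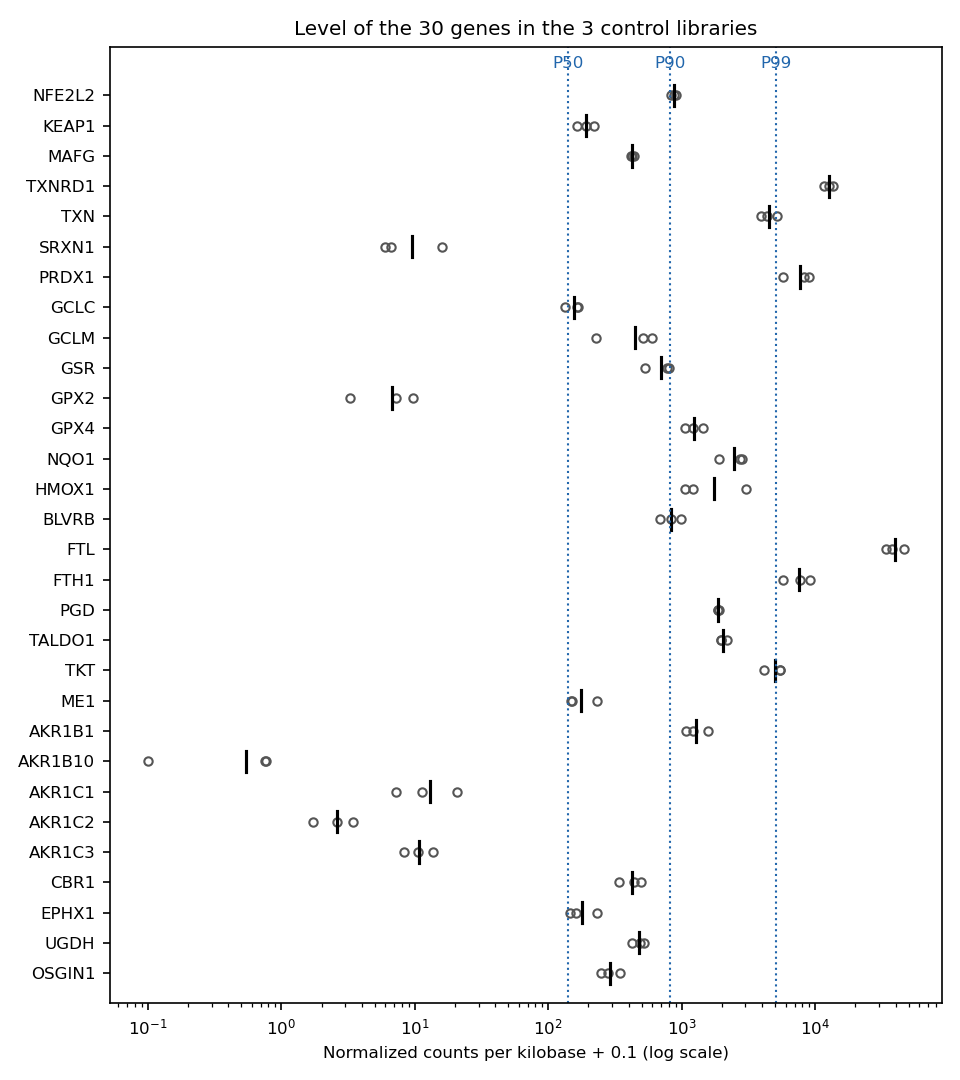
Normalized counts per kilobase plus 0.1 on a log axis for the 30 genes in the 3 control libraries (circles, with the mean as a bar); dotted lines mark percentiles 50, 90 and 99 of 13060 tested protein-coding genes. FTL, TXNRD1, PRDX1 and FTH1 lie beyond percentile 99, and 6 genes lie left of percentile 50.

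Some of these levels depend on how reads of overlapping genes were counted, which is not given in the sources used here. In GENCODE 29, 84.9% of the 31-base words of the SRXN1 transcript, read on either strand, also occur in an overlapping gene on the same strand (ENSG00000270299), which held 3.08 to 12.6 normalized counts. For FTH1 the share was 83%, and 66.1% of its words occur in BEST1, a gene that overlaps it on the opposite strand and held 2.98 to 11.2. The FTH1 pseudogenes (25 listed) summed to 111 to 244 normalized counts, against 5760.1 to 11413 for FTH1. For AKR1C1, 34.9% of words occur in AKR1C2, and for AKR1C2 62.5% occur in AKR1C1, so reads of these near-identical reductases cannot be assigned with certainty. How far shared reads lowered the values was not tested.

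SKF-96365 against control, and 2-APB against control, ask how transcript levels differ with the compounds that the series text names as inhibitor and agonist. The libraries hold transcript levels only, so action on the channel was not tested. No gene of the programme passed limma's test in either. With SKF-96365 the count was 0 of 27, against 0% of all 17492 genes, and with 2-APB it was again 0 of 27 against 0%. At an unadjusted p under 0.05, 1 member of 27 was lower with SKF-96365 (KEAP1), as were 1.94% of all genes, and 1 of 27 was lower with 2-APB (MAFG), as were 1.43% of all genes. Positive log2 fold changes were found for 10 of 27 members with SKF-96365, against 49.5% of all genes, and for 11 of 27 with 2-APB, against 49.7%. edgeR on the recovered reads of 8 libraries called 0 members in both comparisons and DESeq2 called 0. The library left out there was SKF-96365 3, so that group held only SKF-96365 1 and SKF-96365 2, with r = 0.9716 between them. With so few and unlike libraries, these fits say little about SKF-96365. In limma's F test over the 3 groups, 3 of 27 members had an unadjusted p under 0.05, against 4.02% of all genes. These were MAFG (0.0189), HMOX1 (0.0201) and KEAP1 (0.0246), with an adjusted p of 0.862 each. The median log2 fold change of the 27 members was -0.05 with SKF-96365, beside -0.004 over all tested genes. With 2-APB it was -0.02, beside -0.002. Under total rescaling the 2-APB medians were 0.03 for the members and 0.05 for all tested genes, and under upper-quartile rescaling 0.02 and 0.04. The 2 comparisons share the control libraries.

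**Figure D2:**
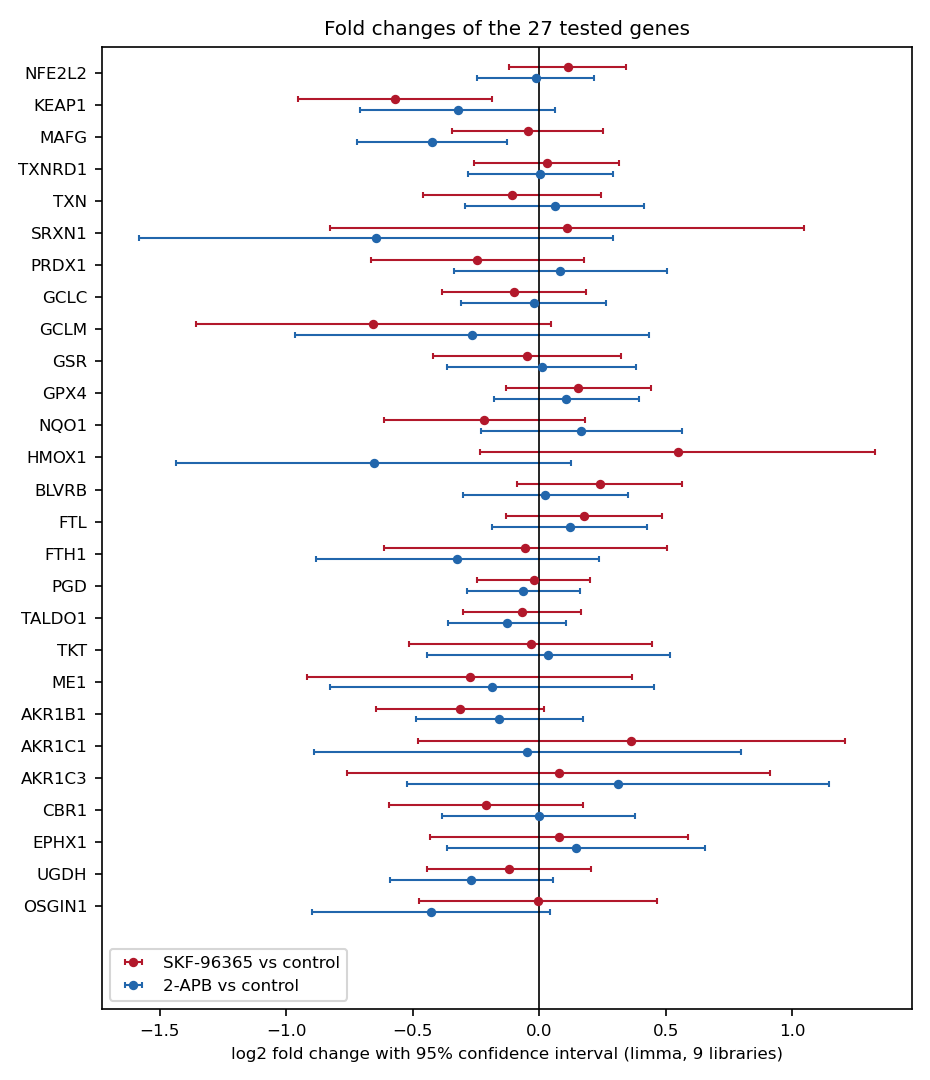
Log2 fold change with 95% confidence interval (limma, 9 libraries) of the 27 tested genes, for SKF-96365 against control (red) and 2-APB against control (blue). The interval of KEAP1 with SKF-96365 and that of MAFG with 2-APB leave out 0, and no gene passed the adjusted threshold.

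Among the 3 regulators, NFE2L2 was nearly level across libraries, KEAP1 was lowest in SKF-96365 2 and 3, and MAFG was lowest in 2-APB 1 and 2. NFE2L2, encoding NRF2, had 2453, 2819 and 2843 normalized counts in SKF-96365 1 to 3, 2531, 2533 and 2349.8 in 2-APB 1 to 3, and 2382, 2503 and 2599.5 in control 1 to 3. The SKF-96365 and control values overlap, and the highest library was 1.21 times the lowest. NFE2L2 had a log2 fold change of 0.11 (95% confidence interval -0.12 to 0.35, adjusted p = 0.792) with SKF-96365 and -0.01 (95% confidence interval -0.25 to 0.22, adjusted p = 0.9995) with 2-APB. KEAP1, the repressor of NRF2, had 478, 332 and 342 normalized counts in SKF-96365 1 to 3, 439.6, 421 and 493 in 2-APB 1 to 3, and 565, 652 and 483 in control 1 to 3. All 3 SKF-96365 libraries lay below all 3 control libraries, though SKF-96365 1 reached 478 beside 483 in control 3. Its log2 fold change with SKF-96365 was -0.57 (95% confidence interval -0.95 to -0.18, adjusted p = 0.789), and with 2-APB it was -0.32 (95% confidence interval -0.71 to 0.06, adjusted p = 0.9995). Without control 3 and SKF-96365 1 the SKF-96365 value was -0.85 (adjusted p = 0.00303).

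MAFG, the DNA-binding partner of NRF2, had 2049, 2172 and 2019 normalized counts in SKF-96365 1 to 3, 1472, 1407 and 1978 in 2-APB 1 to 3, and 2092, 2126 and 2221 in control 1 to 3. All 2-APB libraries lay below all control libraries, with 2-APB 3 near the controls and 2-APB 1 and 2 well below. The log2 fold change was -0.42 (95% confidence interval -0.72 to -0.13, adjusted p = 0.9995) with 2-APB and -0.05 (95% confidence interval -0.34 to 0.25, adjusted p = 0.926) with SKF-96365. With 2-APB it was -0.58 without 2-APB 3 and -0.33 without 2-APB 2. In the fit without 2-APB 2, 0 of 27 members had an unadjusted p under 0.05 in limma's test of 2-APB against control. Across the 27 members, 2 had every SKF-96365 library below every control library (KEAP1 and AKR1B1), as had 2.94% of all genes, and 2 had every 2-APB library below every control library (MAFG and HMOX1), as had 3.97%.

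No thioredoxin gene passed the test, and the group means of TXNRD1 lay close together. TXNRD1, which renews thioredoxin with NADPH, ran from 45554 (control 3) to 54549 (SKF-96365 1), with means of 50546 ± 4338 with SKF-96365, 49538 ± 736 with 2-APB and 49475 ± 3708 in control (SD, n = 3). Its log2 fold changes were 0.03 (95% confidence interval -0.26 to 0.32, adjusted p = 0.952) with SKF-96365 and 0.00 (95% confidence interval -0.28 to 0.29, adjusted p = 0.9995) with 2-APB. TXN, the thioredoxin itself, ran from 3009.8 to 4503, with a log2 fold change of -0.11 (SE 0.16, adjusted p = 0.847) with SKF-96365, and -0.36 (adjusted p = 0.041) without control 3 and SKF-96365 1. PRDX1 had 9728, 6573 and 7479 normalized counts in SKF-96365 1 to 3, 9752, 9528 and 10197 in 2-APB 1 to 3, and 11089, 10238 and 7012 in control 1 to 3. SKF-96365 2, SKF-96365 3 and control 3 were the 3 lowest libraries, and the other 6 lay between 9528 and 11089. Its log2 fold change with SKF-96365 was -0.25 (SE 0.19, adjusted p = 0.789), and -0.60 (adjusted p = 0.004) without control 3 and SKF-96365 1. PRDX1 shares 29.2% of its 31-base words with MMACHC, an overlapping gene that had 244 to 402 normalized counts. SRXN1 ran from 11.0 to 42.6 normalized counts (10 to 42 reads in the 8 libraries with recovered reads), and no difference between groups was detectable at these counts. SRXN1 had a log2 fold change of 0.11 with SKF-96365 and -0.65 with 2-APB, each with an SE of 0.42.

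Of the tested glutathione genes, GCLM spread the most between libraries and GCLC little, although their products form 1 enzyme. GCLM, the modifier subunit of glutamate-cysteine ligase, which makes the first step of glutathione synthesis, had 1716, 1071 and 1098 normalized counts in SKF-96365 1 to 3, 1643, 1682 and 1645 in 2-APB 1 to 3, and 2478, 2885 and 1102 in control 1 to 3. Control 1 and 2 were the highest of all 9 libraries and control 3 lay with SKF-96365 2 and 3 between 1071 and 1102, so the groups overlap. The 2-APB libraries were close to each other and in between. Its log2 fold change was -0.65 (95% confidence interval -1.35 to 0.05, adjusted p = 0.789) with SKF-96365 and -0.26 (95% confidence interval -0.96 to 0.44, adjusted p = 0.9995) with 2-APB. Leaving out control 3 alone gave -1.08 with SKF-96365 and an adjusted p of 0.0421, the only call of a member in the fits without 1 library. Without control 3 and SKF-96365 1 the value was -1.30 (adjusted p = 0.000242). The value with 2-APB also rested on single controls, at -0.69 without control 3 and 0.00 without control 2.

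GCLC, the catalytic subunit, ran only from 505 to 641, with a log2 fold change of -0.10 (SE 0.13, adjusted p = 0.83) with SKF-96365 and -0.02 (SE 0.13, adjusted p = 0.9995) with 2-APB. GSR, which reduces oxidised glutathione, ran from 1680.2 in control 3 to 2559 in control 2, and GPX4, which reduces lipid hydroperoxides, from 969 in control 2 to 1336 in control 3. For both genes the whole range was set within the control group. GSR had a log2 fold change of -0.05 (SE 0.17, adjusted p = 0.937) with SKF-96365, and -0.36 (adjusted p = 0.0192) without control 3 and SKF-96365 1. GPX2, the glutathione peroxidase best known from gut epithelium, had 0.874 to 10.3 normalized counts and was not tested.

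HMOX1, the inducible haem oxygenase, was high in the same 3 libraries in which GCLM, NQO1 and PRDX1 were low. HMOX1 had 2865, 5108 and 4945 normalized counts in SKF-96365 1 to 3, 1822, 1769 and 1845 in 2-APB 1 to 3, and 1929, 2197 and 5468 in control 1 to 3. Control 3, SKF-96365 2 and SKF-96365 3 stood between 4945 and 5468, SKF-96365 1 lower at 2865, and the other 5 libraries between 1769 and 2197. Every 2-APB library was below every control library, by a narrow margin from control 1. The sum of the 3 epithelial keratin markers was lowest in the 3 libraries where HMOX1 was highest, at 110740 to 124350 with SKF-96365, 135220 to 141030 with 2-APB and 115440 to 149360 in control. KRT8 and KRT18 carried the sum, while KRT19 was highest in those 3 libraries (9963 to 10059, against 6620 to 8891 in the other 6). The part of these markers in the HMOX1 values was not tested. The log2 fold change of HMOX1 was 0.55 (95% confidence interval -0.23 to 1.33, adjusted p = 0.789) with SKF-96365 and -0.65 (95% confidence interval -1.43 to 0.13, adjusted p = 0.9995) with 2-APB. Without control 3 and SKF-96365 1 these became 1.29 (adjusted p = 0.000199) and -0.18 (adjusted p = 0.354).

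NQO1, the quinone reductase that serves as a standard NRF2 reporter, had 7538, 5319.6 and 5704 normalized counts in SKF-96365 1 to 3, 8366, 8350.3 and 7268 in 2-APB 1 to 3, and 8166, 7956 and 5532 in control 1 to 3. The same 3 libraries that were highest for HMOX1 were lowest for NQO1. Its log2 fold change was -0.22 (SE 0.18, adjusted p = 0.79) with SKF-96365 and 0.17 (SE 0.18, adjusted p = 0.9995) with 2-APB. Without control 3 and SKF-96365 1 these became -0.55 (adjusted p = 0.00617) and -0.01 (adjusted p = 0.955). AC092115.2, a gene within the NQO1 locus on the opposite strand, holds 18.3% of the 31-base words of NQO1. BLVRB, which reduces biliverdin, ran from 598 in control 2 to 886 in SKF-96365 3, a log2 fold change of 0.24 (SE 0.15, adjusted p = 0.789) with SKF-96365, and 0.40 (adjusted p = 0.0524) without the 2 libraries. FTL averaged 38655 ± 699 with SKF-96365, 37169 ± 1162 with 2-APB and 34478 ± 5628 in control (SD, n = 3), with log2 fold changes of 0.18 (SE 0.14, adjusted p = 0.789) with SKF-96365 and 0.12 (SE 0.14, adjusted p = 0.9995) with 2-APB. Without the 2 libraries FTL stood at 0.32 (adjusted p = 0.052) with SKF-96365 and 0.25 (adjusted p = 0.277) with 2-APB. FTH1 ran from 5760.1 in SKF-96365 1 to 11413 in SKF-96365 3, so that its extremes lay in 1 group, and its log2 fold change there was -0.05 (SE 0.25, adjusted p = 0.956). Its value without control 3 and SKF-96365 1 was 0.40 (adjusted p = 0.0778), of the opposite sign.

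**Figure D3:**
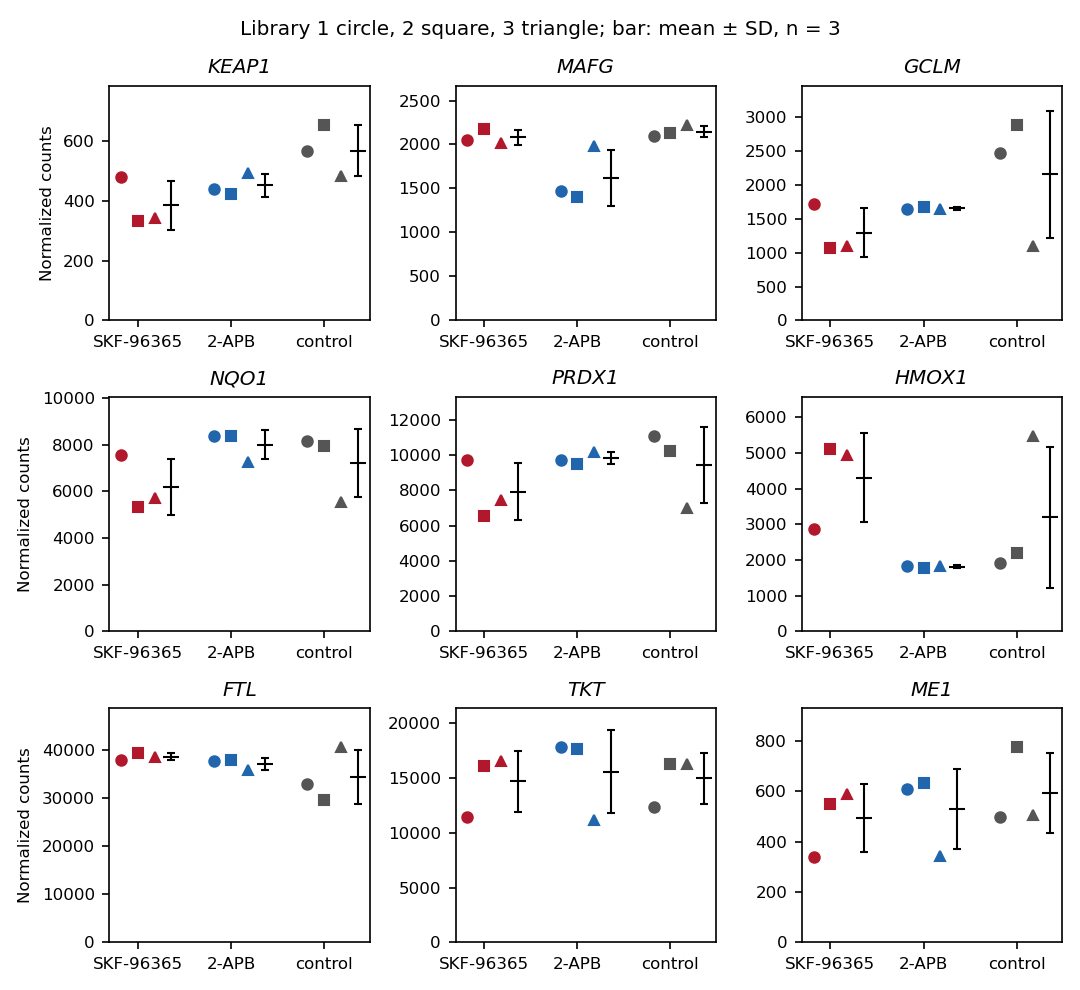
Normalized counts of 9 genes in each library (circle, square and triangle for libraries 1, 2 and 3) for SKF-96365, 2-APB and control, with mean ± SD (n = 3) as a bar. Control 3 (grey triangle) lies near SKF-96365 2 and 3 for GCLM, NQO1, PRDX1 and HMOX1.

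No pentose phosphate or NADPH gene passed the test, and TKT was low in 1 library of each group. PGD, an NADPH-yielding enzyme of the pathway, ran only from 3209 to 3786, and TALDO1, the transaldolase, from 2399 to 2925. TKT, the transketolase that returns sugars to glycolysis, had 11465, 16090.4 and 16538 normalized counts in SKF-96365 1 to 3, 17836, 17696 and 11191 in 2-APB 1 to 3, and 12331, 16261 and 16309 in control 1 to 3. SKF-96365 1, 2-APB 3 and control 1, 1 library of each group, were the 3 lowest, and the other 6 lay between 16090.4 and 17836. ME1, the cytosolic malic enzyme, had 339, 550.0 and 591 normalized counts in SKF-96365 1 to 3, 608, 632 and 345 in 2-APB 1 to 3, and 499, 776 and 505 in control 1 to 3. SKF-96365 1 and 2-APB 3 were again lowest, at 339 and 345, and control 2 was highest. The log2 fold changes of TKT were -0.03 (95% confidence interval -0.51 to 0.45, adjusted p = 0.969) with SKF-96365 and 0.04 (95% confidence interval -0.44 to 0.52, adjusted p = 0.9995) with 2-APB, and those of ME1 were -0.28 (SE 0.29, adjusted p = 0.804) and -0.19 (SE 0.29, adjusted p = 0.9995). VIM was highest in the 3 libraries where TKT was lowest, at 39662 in SKF-96365 1, 44039 in 2-APB 3 and 35036 in control 1, against 25957 to 28599 in the other 6. The 6 mesenchymal markers, none with a mean under 10, summed to 39015 to 45267 with SKF-96365, 34585 to 48716 with 2-APB and 37459 to 40138 in control. VIM made up most of that sum, while FN1 (2160 to 2869, against 4392 to 9687) and CDH2 (1253 to 1394, against 1661 to 1999) were lowest in the 3 libraries. The part of these markers in the TKT values was not tested.

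**Figure D4:**
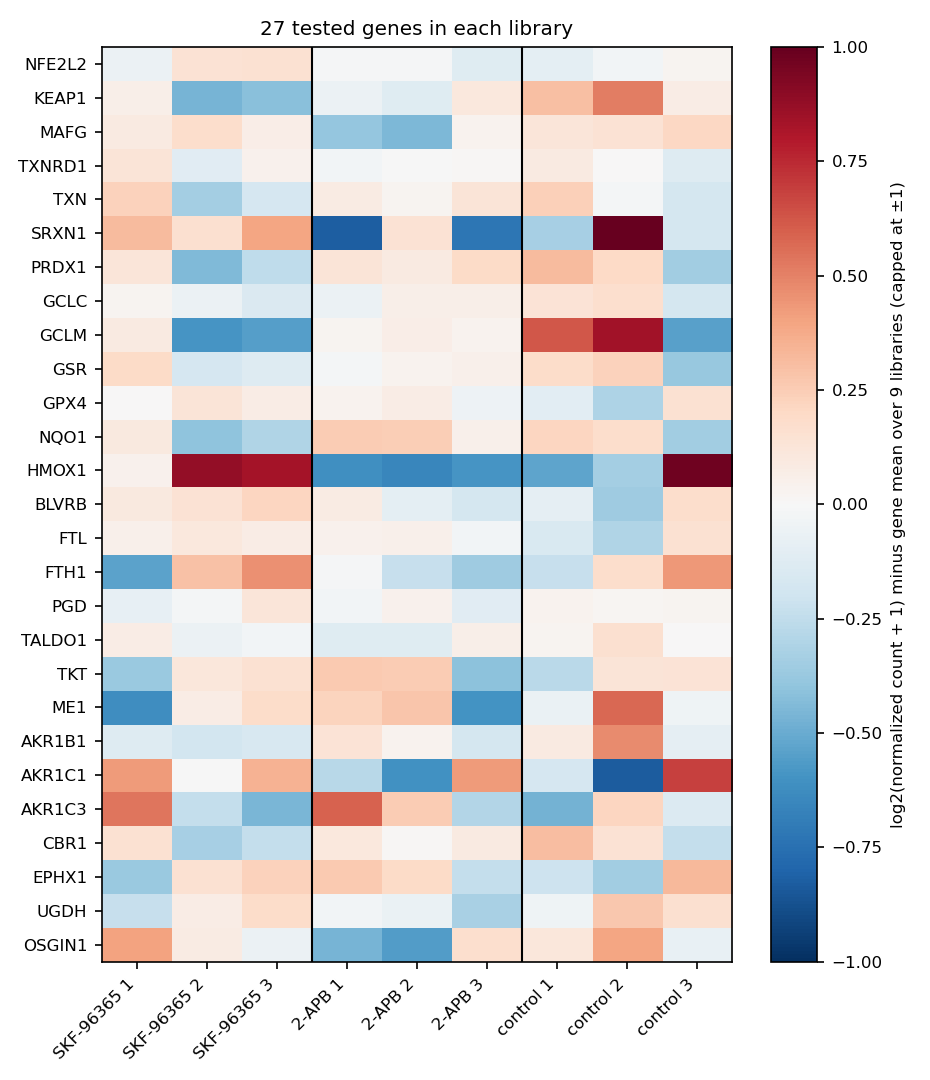
Log2(normalized count + 1) of the 27 tested genes in each library minus the gene's mean over all 9, with libraries in columns by group. HMOX1 is high and GCLM, NQO1 and PRDX1 are low in SKF-96365 2, SKF-96365 3 and control 3, while TKT and ME1 are low in SKF-96365 1 and 2-APB 3.

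Of the aldo-keto reductases, AKR1B1 was well expressed, AKR1C1 was low, and AKR1C2, AKR1C3 and AKR1B10 had few reads in any library. AKR1B1, which reduces glucose and lipid aldehydes, had 1464, 1412 and 1434 normalized counts in SKF-96365 1 to 3, 1763, 1643 and 1415 in 2-APB 1 to 3, and 1700.5, 2216 and 1508 in control 1 to 3. All SKF-96365 libraries lay below all control libraries, and the log2 fold change was -0.31 (SE 0.15, adjusted p = 0.789), with -0.16 (SE 0.15, adjusted p = 0.9995) for 2-APB. Without control 3 and SKF-96365 1 these were -0.45 (adjusted p = 0.0473) and -0.28 (adjusted p = 0.346). AKR1C1, a hydroxysteroid dehydrogenase and a frequent marker of NRF2 activity in human cells, had 115, 85.3 and 109 normalized counts in SKF-96365 1 to 3, 70.2, 55.8 and 115 in 2-APB 1 to 3, and 75.8, 47.7 and 138 in control 1 to 3. Its lowest and highest libraries were both controls. AKR1C3 ran from 14.7 to 31.8 and AKR1C2 from 4.11 to 12.6. AKR1B10, which reduces retinal and is often raised in liver tumours, had 10 reads over 8 libraries and was at 0 in 4 of the 9. A library at 0 still allows up to 3 reads at this depth, by counting error alone. CBR1, a carbonyl reductase, ran from 410.1 in SKF-96365 2 to 639.8 in control 1, with a log2 fold change of -0.21 (SE 0.17, adjusted p = 0.79) with SKF-96365, and -0.51 (adjusted p = 0.0141) without the 2 libraries.

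Of the last 3 members, EPHX1, the microsomal epoxide hydrolase, ran from 255 in SKF-96365 1 to 414 in control 3. UGDH, which makes the sugar donor for glucuronidation, ran from 1121 to 1689 with log2 fold changes of -0.12 (SE 0.15, adjusted p = 0.824) with SKF-96365 and -0.27 (SE 0.15, adjusted p = 0.9995) with 2-APB. OSGIN1, an oxidative stress-induced growth inhibitor, had 766, 614 and 558 normalized counts in SKF-96365 1 to 3, 419.9, 394 and 652 in 2-APB 1 to 3, and 628, 762 and 551 in control 1 to 3. 2-APB 1 and 2 were lowest and 2-APB 3 lay among the controls. Its log2 fold change with 2-APB was -0.43 (95% confidence interval -0.90 to 0.04, adjusted p = 0.9995). It was -0.66 without 2-APB 3 and -0.29 without 2-APB 2.

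2-APB against SKF-96365 compares the compounds directly, with doses and times not labelled. Again 0 of 27 members passed, against 0% of all genes, and 2 of 27 (HMOX1 and MAFG) were lower at an unadjusted p under 0.05, as were 4.09% of all genes. Positive log2 fold changes were found for 13 of 27, against 51.0% of all genes. HMOX1 was 1812 ± 38.8 with 2-APB and 4306 ± 1251 with SKF-96365 (SD, n = 3), a log2 fold change of -1.20 (95% confidence interval -1.98 to -0.42, adjusted p = 0.684), and -1.47 (adjusted p = 7.52e-05) without the 2 libraries. All 2-APB libraries lay below all SKF-96365 libraries for HMOX1, MAFG, SRXN1, BLVRB and FTL, 5 of 27 members, as they did for 8.79% of all genes. Only HMOX1 had a wide margin, with 1845 in the highest 2-APB library and 2865 in the lowest SKF-96365 library. These values were 1978 and 2019 for MAFG, 22.3 and 22.6 for SRXN1, 811 and 818 for BLVRB, and 37938 and 37987 for FTL. The log2 fold change of FTL was -0.06 (adjusted p = 0.911 in limma's test). NQO1 was 7995 ± 629 with 2-APB and 6187 ± 1185 with SKF-96365, with a log2 fold change of 0.38 (95% confidence interval -0.01 to 0.78, adjusted p = 0.694), and 0.53 (adjusted p = 0.0103) without them.

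Without control 3 and SKF-96365 1, limma called 9 of 27 members with SKF-96365 against control, where it called 27.6% of all genes. HMOX1 was called higher (13.1% of all genes were), and KEAP1, TXN, PRDX1, GCLM, GSR, NQO1, AKR1B1 and CBR1 were called lower (14.5%). In that fit 2-APB against control had 0 of 27 called (0% of all genes), and 2-APB against SKF-96365 had 5 of 27, where 13.1% of all genes were called. These 5 were PRDX1, GCLM and NQO1, called higher (6.44% of all genes), and HMOX1 and FTH1, called lower (6.61%). Of the members not called with SKF-96365 in that fit, the log2 fold changes of 7 had the opposite sign to those from all 9 libraries. They were -0.08 for TXNRD1, -0.08 for SRXN1, 0.40 for FTH1, 0.02 for PGD, 0.20 for TKT, -0.22 for AKR1C3 and 0.02 for UGDH. The other 11 kept their sign: BLVRB and FTL as given above, and 9 more with 0.21 for NFE2L2, -0.01 for MAFG, -0.25 for GCLC, 0.31 for GPX4, -0.14 for TALDO1, -0.13 for ME1, 0.67 for AKR1C1, 0.47 for EPHX1 and -0.24 for OSGIN1. With 2-APB against control, MAFG stood at -0.40, OSGIN1 at -0.54, TKT at 0.10, ME1 at -0.29, UGDH at -0.25 and FTH1 at -0.17 in that fit. Why control 3 and SKF-96365 1 lie apart from their groups was not tested.

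**Figure D5:**
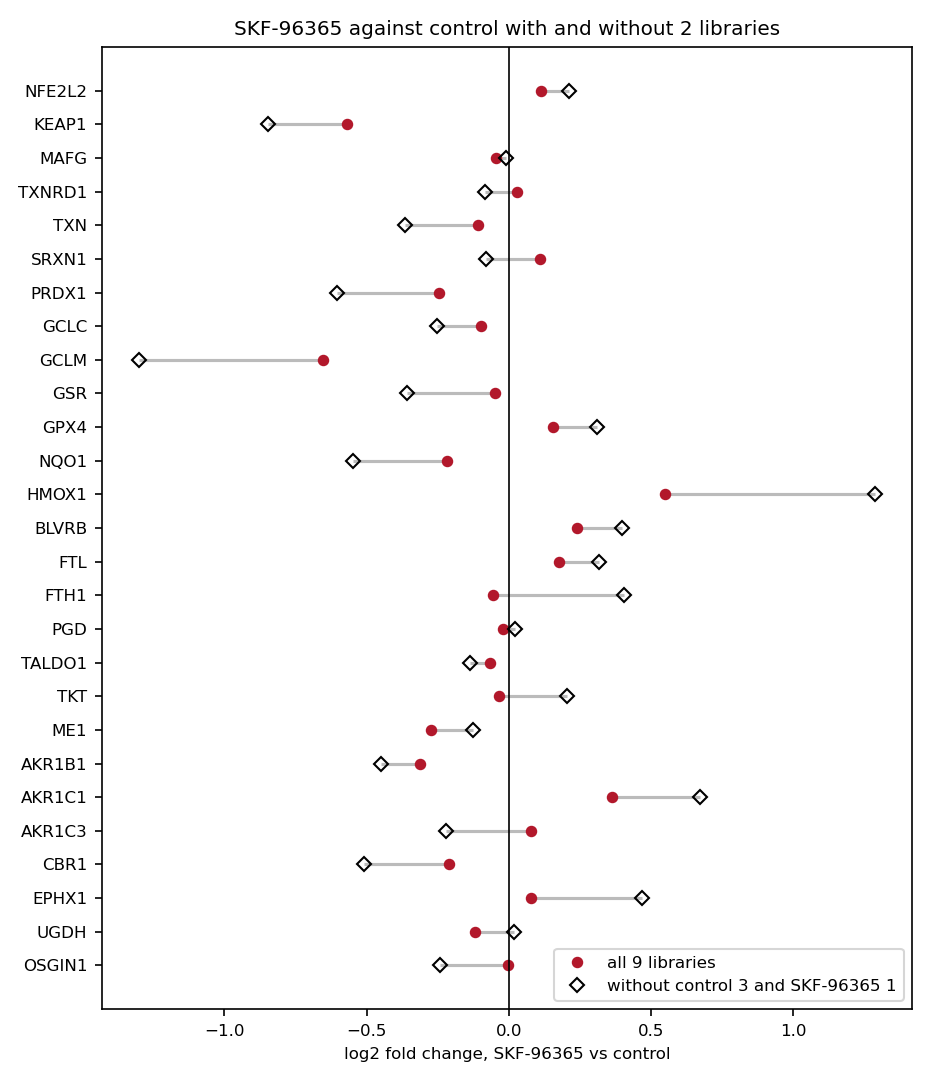
Log2 fold change of the 27 tested genes with SKF-96365 against control, from all 9 libraries (filled circles) and without control 3 and SKF-96365 1 (open diamonds). HMOX1 lies at 0.55 and 1.29, GCLM at -0.65 and -1.30, and FTH1, TKT and UGDH are among those that change sign.

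The wider pathway was read from 8 lists with 121 other genes, of which 104 were tested. Of these, 0 passed limma's test in each of the 3 comparisons. With SKF-96365 against control 44 of 104 were positive and 60 negative (median -0.05), and with 2-APB against control 49 were positive and 55 negative (median -0.02). With 2-APB against SKF-96365 61 were positive and 43 negative (median 0.07). Of the 104, 34 were called in SKF-96365 against control without control 3 and SKF-96365 1 (13 higher and 21 lower), where 27.6% of all genes were called, 0 in 2-APB against control, and 19 in 2-APB against SKF-96365 (9 higher and 10 lower), where 13.1% were. Largest changes are named among genes with a mean of at least 50 normalized counts. Among NRF2 regulators and partners (12 tested, 6 positive and 6 negative with SKF-96365, 2 and 10 with 2-APB), BACH1, which competes with NRF2 at its elements and represses HMOX1, had 1651, 2729 and 2904 normalized counts in SKF-96365 1 to 3, 1444, 1461 and 1159 in 2-APB 1 to 3, and 1257, 1219 and 2563 in control 1 to 3. BACH1 was highest in the same 3 libraries as HMOX1, with a log2 fold change of 0.58 (SE 0.29, adjusted p = 0.789) with SKF-96365, and 1.18 (adjusted p = 0.000795) without control 3 and SKF-96365 1. MAFF, another small Maf, stood at -0.57 (SE 0.25, adjusted p = 0.9995) with 2-APB against control and -0.93 (SE 0.25, adjusted p = 0.684) with 2-APB against SKF-96365. SQSTM1, which sequesters KEAP1, was the highest of the list and stood at 0.23 (SE 0.21, adjusted p = 0.792) with SKF-96365, and 0.60 (adjusted p = 0.0191) without the 2 libraries. MAFF without them stood at -0.40 (adjusted p = 0.453) with 2-APB against control and -0.88 (adjusted p = 0.0458) with 2-APB against SKF-96365.

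Among 15 other NRF2 targets, 6 were positive and 9 negative with SKF-96365, and 8 and 7 with 2-APB. SLC7A11, the cystine importer that feeds glutathione synthesis, had 3471, 6115 and 6675 normalized counts in SKF-96365 1 to 3, 5437, 5581 and 3005 in 2-APB 1 to 3, and 3695, 4293 and 5518 in control 1 to 3. Its 3 lowest libraries were those of TKT, 1 in each group, and its log2 fold changes were 0.23 (SE 0.29, adjusted p = 0.829) with SKF-96365 and 0.02 (SE 0.29, adjusted p = 0.9995) with 2-APB, and 0.68 (adjusted p = 0.0716) and 0.18 (adjusted p = 0.74) without the 2 libraries. TRIM16L had the largest change of that list at this level with SKF-96365, -0.64 (SE 0.24, adjusted p = 0.789), and -0.96 (adjusted p = 0.00911) without them. Of 16 thioredoxin and peroxiredoxin genes, 10 were negative with SKF-96365 and 8 with 2-APB, and the thioredoxin inhibitor gene TXNIP stood at 1.02 (SE 0.52, adjusted p = 0.789) with SKF-96365, and 2.08 (adjusted p = 0.00105) without the 2 libraries. Of 5 superoxide and peroxide enzymes, 4 were positive with SKF-96365 and 2 with 2-APB. The mitochondrial superoxide dismutase gene SOD2 had 4774, 7588 and 8388 normalized counts in SKF-96365 1 to 3, 2472, 2390.1 and 3107 in 2-APB 1 to 3, and 2697, 2352 and 7522 in control 1 to 3, and a log2 fold change of 0.89 (SE 0.38, adjusted p = 0.789) with SKF-96365, and -1.35 (SE 0.38, adjusted p = 0.684) with 2-APB against SKF-96365. Without the 2 libraries these were 1.66 (adjusted p = 0.000299) and -1.60 (adjusted p = 0.000256). SOD2 was highest in the 3 libraries where HMOX1 was highest, and every 2-APB library lay below every SKF-96365 library.

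Of 20 glutathione enzymes, 9 were positive with SKF-96365 and 10 with 2-APB, and GSTM2, a glutathione transferase, had the largest change in both among those with a mean of at least 50, 0.46 (SE 0.28, adjusted p = 0.789) and 0.47 (SE 0.28, adjusted p = 0.9995), and 0.98 (adjusted p = 0.00441) and 0.82 (adjusted p = 0.175) without the 2 libraries. Pentose phosphate and NADPH genes were negative in 12 of 16 with SKF-96365 and in 6 of 16 with 2-APB. At a mean of at least 50, the largest changes there were H6PD, an NADPH-yielding enzyme of the endoplasmic reticulum, at 0.71 (SE 0.41, adjusted p = 0.789) with SKF-96365, and PRPS1, which makes phosphoribosyl pyrophosphate, at -0.44 (SE 0.19, adjusted p = 0.9995) with 2-APB. Without the 2 libraries H6PD stood at 1.53 (adjusted p = 0.00143) and PRPS1 at -0.45 (adjusted p = 0.215). Of 13 haem and iron genes, 7 were positive with SKF-96365 and 4 with 2-APB, and the transferrin receptor gene TFRC stood at -0.49 (SE 0.16, adjusted p = 0.9995) with 2-APB. HMOX2, the constitutive haem oxygenase, stood at -0.23 (SE 0.17, adjusted p = 0.789) with SKF-96365. Without the 2 libraries TFRC stood at -0.42 (adjusted p = 0.194) and HMOX2 at -0.53 (adjusted p = 0.0107). Of 7 other aldo-keto and carbonyl reductases, 2 were positive with SKF-96365 and 5 with 2-APB, and AKR1A1, the highest of them, stood at 0.00 (SE 0.12, adjusted p = 0.993) and -0.09 (SE 0.12, adjusted p = 0.9995), and 0.12 (adjusted p = 0.476) and -0.05 (adjusted p = 0.86) without the 2 libraries.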

How the data were processed

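The deposited table holds a normalized signal per gene and library, in which the authors' values behave as whole gene counts divided by 1 factor per library. The submitters' processing notes list DESeq2. Its version and the aligner, counter, build, annotation and strand setting are not given in the sources used here. A SMARTer kit for mRNA was used on total RNA, per the labels. Symbols were matched by Ensembl identifier (60463 from a current table and 130 from GENCODE 29), and 488 unnamed loci held 0.205% to 0.275% of the signal of a library.

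limma 3.58.1 with an intensity trend (R 4.3.3) was run on log2(normalized count + 1) over the 17492 genes that reached 10 normalized counts in 3 or more libraries. All 9 shared 1 spread per gene and tests were two-sided. A gene was called at an adjusted p (Benjamini-Hochberg, all genes) under 0.05. Fold changes on this scale understate low genes. Every value (100%, within 0.001 of a read) was a whole multiple of a step, so reads were recovered. SKF-96365 3, whose step of 0.992 is near 1, was left out of edgeR 4.0.16 and DESeq2 1.42.0, which called 0 and 2 genes with SKF-96365, 0 and 0 with 2-APB, and 0 and 1 between the compounds. limma was also run on simulated counts, drawn for each library apart. These lack the likeness between libraries of different groups seen here, and no result rests on them. Intervals cover counting error or spread between libraries only, since reads carry no molecular identifiers.

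The 30 members and the 8 other lists were chosen with earlier results of these data known. Values in every library are given for members with a mean of at least 50 whose highest library was at least 2 times the lowest, for the regulators, and for others picked after their values were seen. Other lists name the tested member with the highest mean, or the one with the largest change among those with a mean of at least 50 normalized counts. Per-kilobase levels used GENCODE 29 lengths, and promoter sequences came from RefSeq (GRCh38.p14).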

Additional observations from a re-analysis of the deposited data

How the results depend on the processing

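No member was called in the main fit, so the counts below show how far that depends on single libraries. In SKF-96365 against control, fits without 1 library called 0 to 173 genes and 0 to 1 members, the upper values without control 3. Without both control 3 and SKF-96365 1, chosen after seeing the data, 4823 genes and 9 members were called, and for 2-APB against SKF-96365 2283 genes and 5 members. In 2-APB against SKF-96365, 4 genes were called with only the 2 groups compared, and 0 to 4 without 1 library (4 without control 3). DESeq2 called 2 genes with SKF-96365 and 1 between the compounds. The members' median with 2-APB was -0.131 without control 3, alone or with SKF-96365 1, and its range over fits without 1 library was -0.131 to -0.001. The median with 2-APB turned positive under total rescaling (0.0267) and upper-quartile rescaling (0.0187), so its sign is not a result. The median over all tested genes moved with it, from -0.002 to 0.0461 and 0.0382, and stayed above that of the members. Why the values moved without single libraries was not tested.

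The other alternatives (a pseudocount of 0.5 or 5, no filter, a mean of at least 50, both rescalings, no variance trend, edgeR) called 0 genes and 0 members in each comparison. Fold changes of single members changed sign in at least 1 fit without 1 library for 11 of 27 members with SKF-96365, 14 with 2-APB and 6 between the compounds. With the replicate number as a block, 0 members were called and the members' median with SKF-96365 stayed at -0.0455. Same-numbered libraries did not deviate together throughout (correlations of deviations -0.352 to 0.498 over 9 pairs), and 0 libraries were closest to their own number in both other groups. SKF-96365 1 with control 1 stood at 0.498 and SKF-96365 3 with control 3 at 0.373. SKF-96365 1 with 2-APB 3, of unlike number, stood at 0.475. Low counts limit what can be said of GPX2, AKR1B10, AKR1C2, AKR1C3 and SRXN1, and 3 libraries a group limit the rest.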
